A study of Homo sapiens with 9 samples.

Results

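The TGF-β and BMP response genes described here are 9 genes of 1 signalling family that were chosen by name from the deposited count table. They comprise 3 ligand genes (TGFB1, TGFB2 and INHBA), 2 inhibitory SMAD genes (SMAD6 and SMAD7) and 4 ID genes (ID1, ID2, ID3 and ID4). They are 9 of the 26475 gene symbols in the table, and all 9 were among the 16417 genes expressed highly enough to be tested. mRNA was sequenced from A375, a human BRAF-mutant melanoma cell line, after 24 h with the vehicle DMSO, with 5 µM TP-472 or with 10 µM TP-472. TP-472 is a small molecule that binds the bromodomains of BRD7 and BRD9, which are subunits of SWI/SNF chromatin remodelling complexes. Each of the 3 groups had 3 libraries, and all 9 libraries came from this one line, so every difference below is a difference within A375. The sequencing addressed which transcripts change in melanoma cells when BRD7 and BRD9 are inhibited.

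TGF-β, activin and BMP ligands bind pairs of serine/threonine kinase receptors, which phosphorylate receptor-regulated SMAD proteins. These SMADs join SMAD4, enter the nucleus and regulate transcription. SMAD6 and SMAD7 are induced by the pathway and act back on it as inhibitors, SMAD6 mainly on the BMP branch and SMAD7 on both branches. The ID genes are classical BMP target genes. ID proteins have a helix-loop-helix but no DNA-binding basic region, so they hold E proteins away from DNA and restrain differentiation. In melanoma, TGF-β signalling is known for its part in invasion and in the extracellular matrix.

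ID2 rose most at both doses, by 4.22-fold at 5 µM and 8.48-fold at 10 µM. ID3 and INHBA rose at 10 µM and SMAD6 fell to about 0.506 of its DMSO level there. TGFB1, the most highly expressed of the 3 ligand genes per kilobase of exon, showed no difference that passed the test at either dose. Of 104 other genes of the pathway, 10 rose (9.62%) and 23 fell (22.1%) at 10 µM, beside 8.57% and 10.5% of all genes tested. The TGF-β target genes FN1 and TGFBI fell and CCN2 rose in the same cells.

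The promoters of SMAD6, INHBA and ID1 are shown because of their motif matches. That of SMAD6, a gene that fell, holds a rare SMAD palindrome, and those of INHBA and ID1 hold the letters TATAAA. The 9 genes matched 11 promoter entries of RefSeq (GRCh38.p14), since SMAD7 has 3. Each window is the 250 bases before the start of transcription in RefSeq, written 5′ to 3′ on the strand of the gene. Windows of ID2 and ID3 are not printed because 202 and 250 of their bases lie in exons of longer GENCODE transcripts. Of the windows shown, that of SMAD6 has 8 bases in GENCODE exons, that of INHBA 18 and that of ID1 6. The windows shown are SMAD6 (chr15:66701986-66702235, plus strand), INHBA (chr7:41703091-41703340, minus strand) and ID1 (chr20:31605039-31605288, plus strand). Capitals mark the matches to the motifs searched.
SMAD6: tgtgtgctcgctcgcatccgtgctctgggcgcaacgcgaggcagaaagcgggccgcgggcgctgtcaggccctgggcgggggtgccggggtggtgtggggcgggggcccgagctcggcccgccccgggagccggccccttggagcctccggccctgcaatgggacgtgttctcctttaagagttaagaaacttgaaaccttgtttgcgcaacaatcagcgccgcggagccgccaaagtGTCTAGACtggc
INHBA: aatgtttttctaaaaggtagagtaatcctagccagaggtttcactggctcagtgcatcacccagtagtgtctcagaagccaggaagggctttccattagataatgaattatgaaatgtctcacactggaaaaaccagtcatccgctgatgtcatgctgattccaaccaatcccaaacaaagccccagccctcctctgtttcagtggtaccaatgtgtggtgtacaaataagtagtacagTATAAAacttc
ID1: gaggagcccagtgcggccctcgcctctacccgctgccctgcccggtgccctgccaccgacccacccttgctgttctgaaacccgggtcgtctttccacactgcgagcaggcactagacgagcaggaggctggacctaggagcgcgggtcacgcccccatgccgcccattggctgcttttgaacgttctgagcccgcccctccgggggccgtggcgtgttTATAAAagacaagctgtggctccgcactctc

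The 4 motifs searched were chosen with these promoters in view, so the shares below are no test of enrichment. GTCTAGAC is the palindrome bound by SMAD proteins, CAGAC is the shorter SMAD box and GGCGCC is a core of the BMP-responsive element. TATAAA is the sequence of a TATA box. The first 3 were read on both strands and TATAAA on the strand of the gene only. GTCTAGAC stood in 1 of the 11 windows, that of SMAD6, and in 64 of 35116 promoters in RefSeq (0.182%). In SMAD6 it ended 4 bases before the RefSeq start. The GENCODE start of SMAD6, at 66702228, lies inside this match, so part of it is in an exon by that annotation. CAGAC stood in 5 of the 11 windows and in 38.0% of all promoters. TATAAA stood in 5 of the 11, among them INHBA and ID1, and in 6.80% of all promoters. The INHBA match lies nearer the RefSeq start than that of ID1, and the search took no account of position. GGCGCC stood in 0 of the 11 and in 16.4% of all promoters. Bases outside the windows were not searched, so this 0 does not show that the genes lack such an element. The ID2 window held none of the 4 motifs and the ID3 window held 1 CAGAC. These are matches of letters and no binding was measured.

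The libraries held between 42483061 and 51298108 counts. Of the 8 melanocyte markers, SOX10 and MITF were expressed in every group, at means of 417 and 31.9 CPM (counts relative to the scaled library total) in DMSO. The pigment genes were low, with PMEL at 1.48 CPM, MLANA at 0.173 CPM and TYR at 0 in every library, and S100A1 was the 1 marker called lower at 10 µM (mean of 3.11 CPM in DMSO and 1.05 CPM at 10 µM). The summed level of the 8 markers ran from 448 to 468 CPM in DMSO, from 447 to 462 at 5 µM and from 400 to 448 at 10 µM. The 9 markers of leukocytes, epithelium, endothelium and liver summed to at most 13.8 CPM in any library, of which KRT14 made up a mean of 6.92 to 7.25 CPM, and CD3E was at 0 throughout.

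One library stood apart. The first replicate at 10 µM correlated with another of its group at only 0.946 in log2 CPM, whereas the lowest correlation was 0.992 within DMSO and 0.985 within 5 µM. Its deviation from the group mean went with transcript length (Spearman's rho of -0.589 across 12967 genes), towards shorter transcripts, and with GC content (0.376). Length and GC together accounted for 23.0% of the variance of its deviation. The shares were 13.4% and 14.4% in the other 2 of its group, and at most 1.74% in a library of DMSO or 5 µM. Deviations within a group sum to 0 for each gene, so the shares of the other 2 are not independent of that of the first. All 9 genes had their highest 10 µM value in the first replicate, as did 43.4% of all genes tested. The values of the 9 genes at 10 µM are therefore given with and without it. Because 1 estimate of the spread was shared by all groups, the p-values at 5 µM moved without it too. The adjusted p at 5 µM was then 0.000179 for INHBA, 0.00265 for SMAD6 and 0.0353 for SMAD7, and all 3 log2 fold changes stayed under the fold limit.

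Levels are given as CPM scaled by TMM factors, and changes as log2 fold changes with standard errors (SE) from edgeR's quasi-likelihood test. A gene was called when its Benjamini-Hochberg adjusted p over all genes tested was under 0.05 and its fold change was at least 1.5. At 5 µM against DMSO, 1 of the 9 genes was called higher and 0 lower, against 2.14% and 2.72% of all genes tested. At an unadjusted p under 0.05 these counts were 4 and 2, and DESeq2 called 1 and 0. At 10 µM against DMSO, 3 were called higher and 1 lower, against 8.57% and 10.5% of all genes. Between the doses, 1 was called higher at 10 µM and 0 lower, against 1.42% and 2.59%, with 4 and 1 at an unadjusted p under 0.05 and 1 each by DESeq2. The shares of all genes set beside calls, here and below, are for calls in edgeR. No such share was computed for an unadjusted p, so the unadjusted counts have none to be set against. The median log2 fold change of the 9 genes was 0.34 at 5 µM and 0.25 at 10 µM, whereas the median of all genes tested was 0.01 in both comparisons. The libraries of the 2 groups did not overlap for 7 of the 9 genes at 5 µM, where 48.7% of all genes did not overlap, and for 7 at 10 µM, where the share was 49.3%. Between the doses the libraries of 5 genes did not overlap, against 28.3% of all genes. The comparisons of each dose with DMSO share the 3 DMSO libraries. The p-values measure the spread between these libraries, which the series describes as biological replicates. In bulk RNA, fewer cells expressing a gene and less RNA per cell cannot be told apart.

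**Figure D1:**
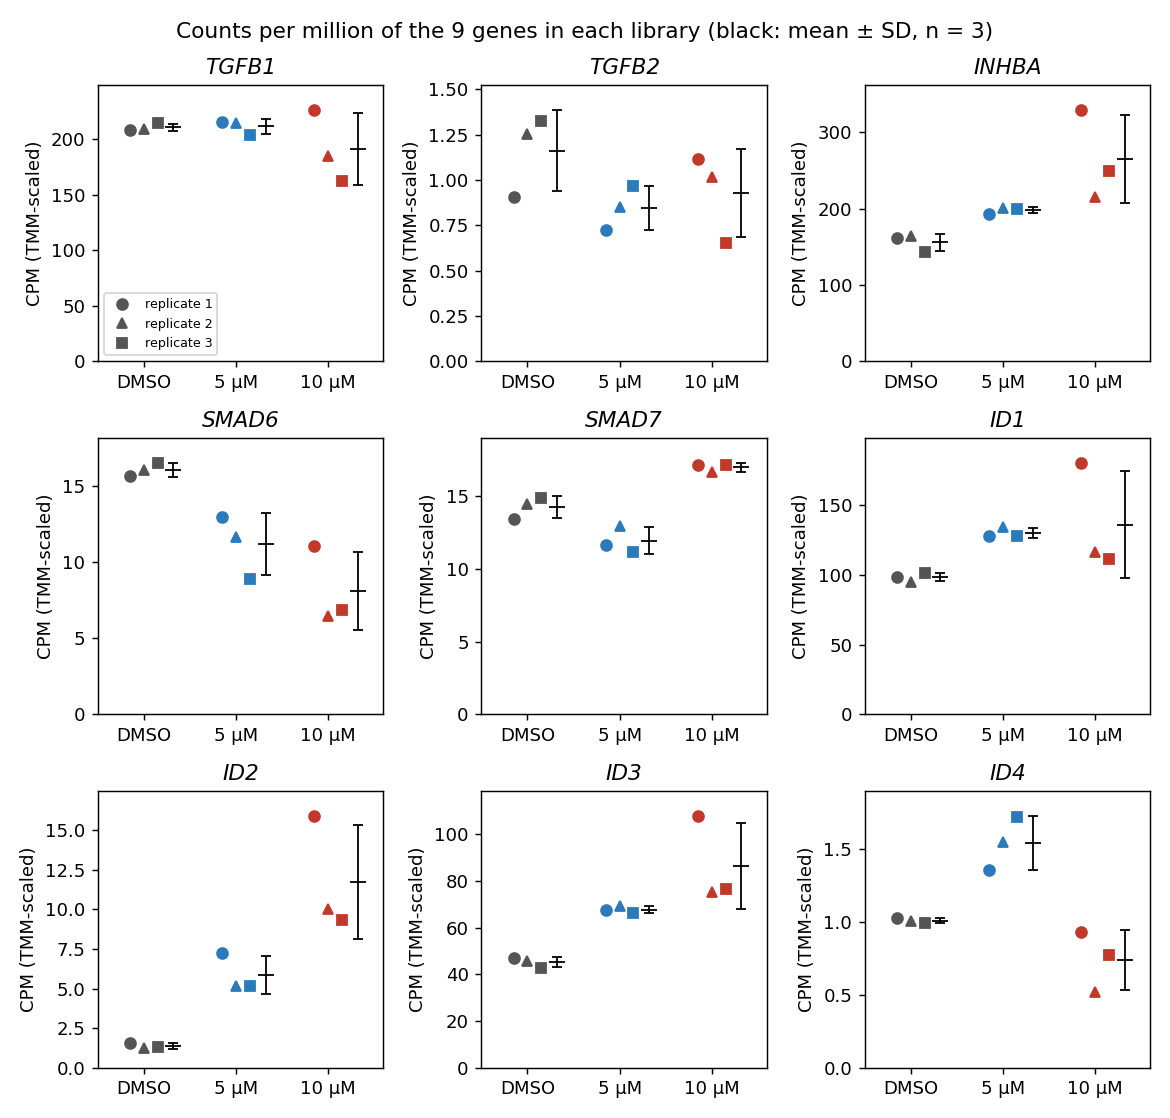
CPM of the 9 genes in each library (vertical axis, linear, from 0) by group (horizontal axis), with circles, triangles and squares for replicates 1, 2 and 3 and black bars for mean ± SD. ID2 rises from a DMSO mean of 1.38 CPM to 11.8 CPM at 10 µM, and the circle at 10 µM is the highest of its group in all 9 panels.

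INHBA, which encodes the subunit that forms activin A, was at 161, 163 and 143 CPM in DMSO. It was at 193, 201 and 199 CPM at 5 µM, and at 329, 216 and 250 CPM at 10 µM. All 3 groups were separate from each other, in the order of dose. Its log2 fold change was 0.34 (SE 0.13, adjusted p = 0.147) at 5 µM, which did not pass, and 0.76 (SE 0.13, adjusted p = 0.00191) at 10 µM, where it was called higher. With the first 10 µM replicate left out, the 10 µM value was 0.57 (SE 0.06, adjusted p = 1.14e-06), which passed the p but lay just under the fold limit. The difference between doses was 0.42 (adjusted p = 0.0855) with all libraries and 0.23 (adjusted p = 0.0104) without that one. INHBA lies on chromosome 7 between 41667168 and 41705834 on the minus strand (GRCh38, GENCODE). Its antisense gene INHBA-AS1 shares no exonic bases with it and held 6 to 41 counts per library.

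TGFB1, the gene of the main TGF-β ligand, was at 208, 209 and 214 CPM in DMSO, at 216, 215 and 204 CPM at 5 µM, and at 226, 185 and 162 CPM at 10 µM. The groups overlapped, and the 10 µM libraries lay on both sides of the DMSO range. Its log2 fold change was 0.01 (SE 0.11, adjusted p = 0.982) at 5 µM and -0.14 (SE 0.11, adjusted p = 0.349) at 10 µM. The latter was -0.28 (SE 0.05, adjusted p = 0.000252) when the first 10 µM replicate was left out, a value past the p and under the fold limit. TGFB1 lies on chromosome 19 between 41301587 and 41353911 on the minus strand. Exons of HNRNPUL1 on the opposite strand cover 6.64% of the TGFB1 exons.

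TGFB2, a second TGF-β ligand gene, was low, at 0.906, 1.26 and 1.32 CPM in DMSO. It was at 0.723, 0.852 and 0.965 CPM at 5 µM and at 1.12, 1.02 and 0.652 CPM at 10 µM, or 32 to 61 counts per library over the 9 libraries. The groups overlapped. The log2 fold change was -0.45 (SE 0.35, adjusted p = 0.504) at 5 µM and -0.32 (SE 0.35, adjusted p = 0.525) at 10 µM, so a difference of this size was not detectable at this depth. Leaving out the first 10 µM replicate gave -0.47 (SE 0.43, adjusted p = 0.388) at 10 µM. The transcript TGFB2-OT1 on the same strand covers 26.6% of the TGFB2 exons and held 0 to 5 counts, so reads of the shared part could be assigned to either.

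SMAD6, the inhibitory SMAD of the BMP branch, was at 15.6, 16.0 and 16.5 CPM in DMSO. It was at 13.0, 11.7 and 8.93 CPM at 5 µM and at 11.1, 6.44 and 6.87 CPM at 10 µM. Every treated library lay below every DMSO library, and the ranges of the 2 doses overlapped through the first 10 µM replicate. The log2 fold change was -0.52 (SE 0.21, adjusted p = 0.150) at 5 µM and -0.98 (SE 0.21, adjusted p = 0.00517) at 10 µM, where SMAD6 was called lower. The fall was larger without the first 10 µM replicate, at a log2 fold change of -1.27 (SE 0.14, adjusted p = 1.61e-06) at 10 µM and -0.75 (adjusted p = 0.000923) between the doses. SMAD6 lies on chromosome 15 between 66702228 and 66782848 on the plus strand, and its promoter is the 1 above that holds the SMAD palindrome.

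SMAD7, which recruits ubiquitin ligases to the receptors, was at 13.4, 14.4 and 14.9 CPM in DMSO. It was at 11.6, 13.0 and 11.1 CPM at 5 µM and at 17.1, 16.6 and 17.1 CPM at 10 µM. All 5 µM libraries lay below the DMSO libraries and all 10 µM libraries above them. With all libraries, neither difference against DMSO passed the p. The log2 fold changes were -0.26 (SE 0.09, adjusted p = 0.123) at 5 µM and 0.25 (SE 0.09, adjusted p = 0.0620) at 10 µM. Without the first 10 µM replicate both passed the p (0.0353 and 0.0493) and stayed under the fold limit. The difference between the doses was 0.51 (SE 0.09, adjusted p = 0.0110), which passed the p and lay under the fold limit, and it was 0.50 (adjusted p = 0.00146) without the first 10 µM replicate. The inhibitory SMAD genes thus had values on opposite sides of DMSO at 10 µM. SMAD7 lies on chromosome 18 between 48919853 and 48952052 on the minus strand.

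ID2 was low in DMSO, at 1.59, 1.26 and 1.30 CPM, or 55 to 79 counts. It was at 7.25, 5.13 and 5.17 CPM at 5 µM and at 15.9, 10.1 and 9.31 CPM at 10 µM. The 3 groups were separate from each other, in the order of dose. The log2 fold change was 2.08 (SE 0.25, adjusted p = 0.000837) at 5 µM and 3.08 (SE 0.25, adjusted p = 1.63e-05) at 10 µM. Between the doses it was 1.01 (SE 0.23, adjusted p = 0.0271). Without the first 10 µM replicate the latter values were 2.80 (SE 0.19, adjusted p = 9.82e-09) and 0.73 (adjusted p = 0.00813). The call between the doses was lost when replicate 2 or 3 at 5 µM was left out (adjusted p = 0.115 and 0.113) and when replicate 2 or 3 of DMSO was (0.0506 and 0.0524). ID2 lies on chromosome 2 between 8678845 and 8684453 on the plus strand, and the antisense gene ID2-AS1 shares 38 exonic bases with it and held 8 to 27 counts per library, against 252 to 769 counts of ID2 in the treated libraries.

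ID3 was at 46.9, 45.8 and 42.9 CPM in DMSO, at 67.4, 69.3 and 66.2 CPM at 5 µM, and at 108, 75.1 and 76.7 CPM at 10 µM. The 3 groups were again separate, in the order of dose. The log2 fold change was 0.58 (SE 0.13, adjusted p = 0.0196) at 5 µM, a fold change of 1.495 that fell just under the limit, and 0.93 (SE 0.13, adjusted p = 0.000464) at 10 µM, where ID3 was called higher. Without the first 10 µM replicate the latter was 0.74 (SE 0.05, adjusted p = 1.73e-08), which was still called. The difference between the doses was 0.35 (adjusted p = 0.122) with all libraries and 0.16 (adjusted p = 0.0372) without that one. ID3 lies on chromosome 1 between 23557918 and 23559794 on the minus strand.

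ID1, the most abundant ID transcript, was at 98.6, 95.2 and 101 CPM in DMSO, at 128, 135 and 128 CPM at 5 µM, and at 180, 116 and 112 CPM at 10 µM. Every treated library lay above every DMSO library, and replicates 2 and 3 at 10 µM lay below the 5 µM range while replicate 1 lay above it. The log2 fold change was 0.41 (SE 0.16, adjusted p = 0.141) at 5 µM and 0.47 (SE 0.16, adjusted p = 0.0427) at 10 µM, both under the fold limit. The latter p did not pass without any 1 library of DMSO or 5 µM (0.0675 to 0.128). With the third 10 µM replicate left out, ID1 was called higher at 10 µM. When the first 10 µM replicate was left out the values were 0.40 (SE 0.04, adjusted p = 2.03e-06) and 0.21 (SE 0.05, adjusted p = 0.00132). Between the doses the log2 fold change went from 0.06 (adjusted p = 0.839) with that library to -0.19 (adjusted p = 0.00605) without it. It was also negative, at -0.09, when length and GC trends were removed with all libraries kept. ID1 is a gene of 1233 exonic bases on chromosome 20, between 31605283 and 31606515 on the plus strand.

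ID4, the lowest of the ID genes per kilobase, was at 1.03, 1.01 and 0.993 CPM in DMSO, at 1.36, 1.55 and 1.72 CPM at 5 µM, and at 0.930, 0.519 and 0.774 CPM at 10 µM. The 5 µM libraries lay above the DMSO libraries and the 10 µM libraries below them. With 27 to 84 counts per library, neither difference passed, with log2 fold changes of 0.61 (SE 0.32, adjusted p = 0.284) and -0.45 (SE 0.32, adjusted p = 0.326). The latter was -0.64 (SE 0.39, adjusted p = 0.189) with the first 10 µM replicate left out. Between the doses the value was -1.06 (SE 0.32, adjusted p = 0.0763), and -1.26 (SE 0.39, adjusted p = 0.0282) without the first 10 µM replicate, where it was called lower.

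**Figure D2:**
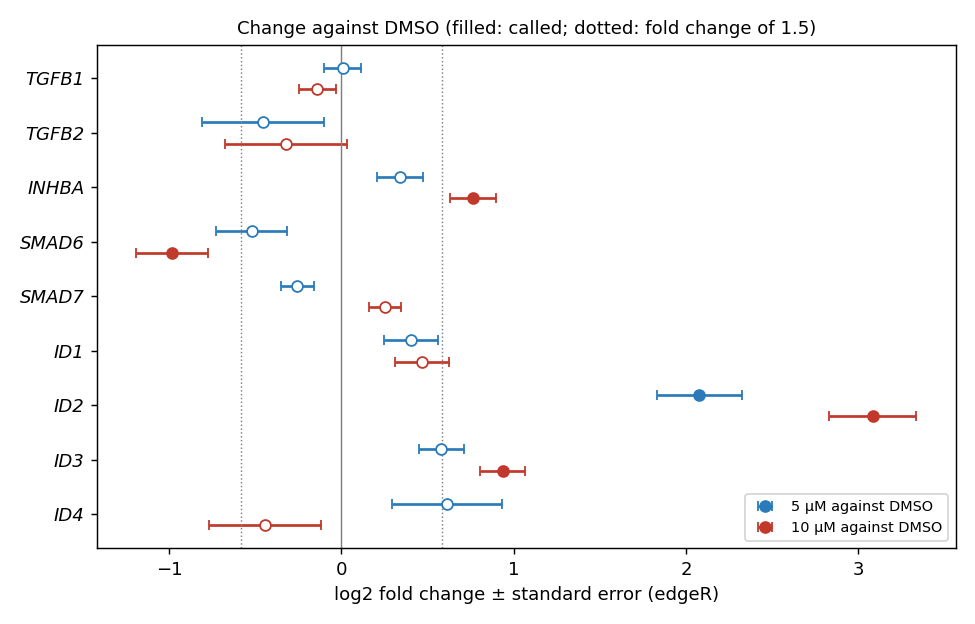
Log2 fold change against DMSO (horizontal axis, ± SE from edgeR) of the 9 genes at 5 µM (blue) and 10 µM (red), with filled points for calls and dotted lines at a fold change of 1.5 in either direction. ID2 lies far to the right of the others at 2.08 and 3.08, SMAD6 is the 1 gene called lower, and the points of SMAD7 and ID4 lie on opposite sides of 0 at the 2 doses.

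Levels were divided by exon length for a rough comparison between genes. The length is that of all annotated exons of a gene merged, which can differ from that of the transcript expressed. The SDs do not cover this. Per kilobase of exon, the ID family in DMSO ran from ID1 at 79.8 ± 2.45 CPM (SD, n = 3) to ID3 at 25.2 ± 1.16, ID2 at 0.627 ± 0.0823 and ID4 at 0.431 ± 0.00712. The neighbours ID1 and ID3, and ID3 and ID2, were far apart compared with these SDs, and the 3 values of ID2 did not overlap those of ID4. At 5 µM the levels were 106 ± 3.01 for ID1, 37.6 ± 0.846 for ID3, 2.65 ± 0.550 for ID2 and 0.659 ± 0.0781 for ID4. At 10 µM the order of the 4 was unchanged, at 110 ± 31.0 for ID1, 48.1 ± 10.2 for ID3, 5.33 ± 1.63 for ID2 and 0.316 ± 0.0884 for ID4. ID1 made up 75.3% of the summed ID level per kilobase in DMSO and 67.2% at 10 µM, ID3 went from 23.7% to 29.3%, and ID2 from 0.591% to 3.25%. ID2 therefore remained a minor part of the ID transcripts at the dose where its fold change was largest. Among the ligands the DMSO levels per kilobase were 65.0 ± 1.07 CPM for TGFB1, 18.8 ± 1.31 for INHBA and 0.226 ± 0.0436 for TGFB2. SMAD7 at 2.83 ± 0.149 stood above SMAD6 at 1.88 ± 0.0506 per kilobase in DMSO. At 10 µM these were 3.37 ± 0.0574 and 0.949 ± 0.299. Before division by length the DMSO order was the reverse, at means of 14.2 CPM for SMAD7 and 16.1 CPM for SMAD6. Their order per kilobase in DMSO therefore rests on the exon lengths used, 5.033 kb for SMAD7 and 8.563 kb for SMAD6.

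**Figure D3:**
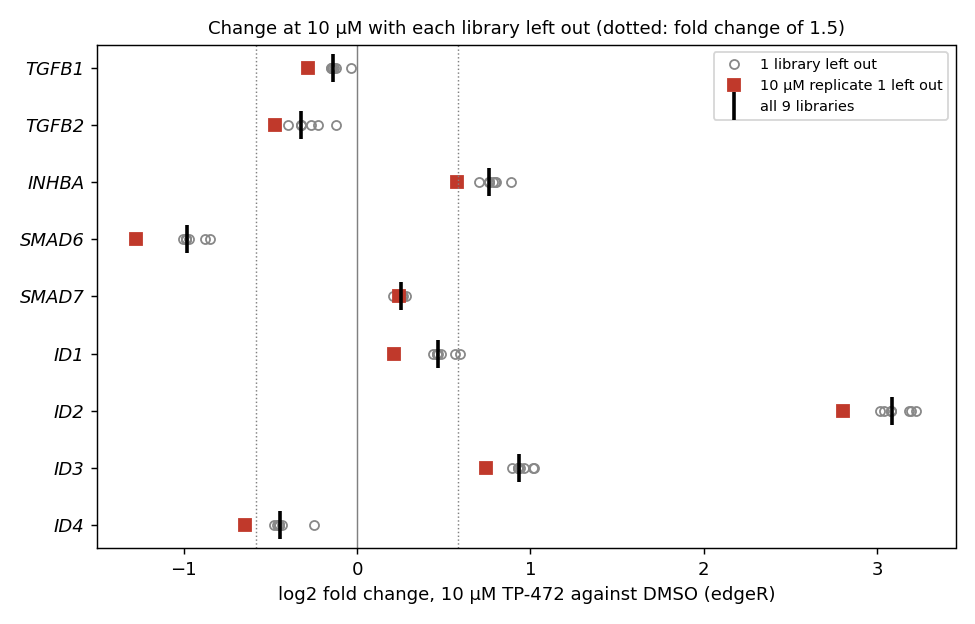
Log2 fold change at 10 µM against DMSO (horizontal axis) of the 9 genes with all libraries (black bar), with each of the 9 libraries left out in turn (grey circles) and, in red, with the first 10 µM replicate left out. The red square of SMAD6 lies farther from 0, at -1.27, whereas those of INHBA and ID1 lie closer, at 0.57 and 0.21, and no gene crosses 0.

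For the 4 genes called at either dose, the genes most like them in log2 CPM over the 9 libraries were sought among 13677 genes averaging 1 CPM or more. These correlations are descriptions over 9 libraries that share their group and the library that stood apart. ID2 was most like GDF15 (Pearson's r = 0.996), a stress-induced ligand of the wider TGF-β superfamily, and HCCS (0.994). ID3 was most like SAT1 (0.998) and ATP6V0E2 (0.996). INHBA was most like UQCRQ (0.996) and NSUN5 (0.995), and SMAD6 was most like PXMP2 (0.987) and MGAT4B (0.986).

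The other genes of the pathway were taken as 9 lists with 128 genes, of which 104 passed the filter on low counts. At 5 µM, 5 of the 104 rose and 9 fell, with a median log2 fold change of -0.09, shares of 4.81% and 8.65% beside 2.14% and 2.72% of all genes tested. At 10 µM, 10 rose (9.62%) and 23 fell (22.1%), with a median of -0.23, beside 8.57% and 10.5% of all genes tested and their median of 0.01. Without the first 10 µM replicate, 8 rose and 24 fell of 106 tested, beside 8.17% and 11.0% of all genes. Between the doses, 4 were higher (3.85%) and 9 lower (8.65%) at 10 µM, beside 1.42% and 2.59% of all genes. Of the genes called at 10 µM and named below, TGFB3, MSX2, TCF4 and TCF12 were not called without the first 10 µM replicate. The others were, at log2 fold changes of 2.56 for GDF15, -1.81 for BMP4, -0.90 for TGFBR2, -2.34 for FN1, -2.18 for TGFBI, 1.88 for CCN2 and -3.46 for ATOH8, for example.

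Of 20 other ligand genes tested, 1 rose (5%) and 3 fell (15%) at 10 µM, beside 8.57% and 10.5% of all genes. GDF15 rose from a mean of 10.4 CPM in DMSO to 39.0 at 5 µM and 73.4 at 10 µM, with log2 fold changes of 1.91 (adjusted p = 0.000215) and 2.82 (adjusted p = 3.96e-06). BMP4, a BMP ligand that activates the ID genes in many cells, was at 12.0, 11.9 and 13.9 CPM in DMSO, at 7.40, 9.32 and 9.30 CPM at 5 µM and at 3.84, 2.73 and 4.44 CPM at 10 µM. It fell at 10 µM by 1.78 on the log2 scale (adjusted p = 8.06e-05) in the cells in which ID2 and ID3 rose. BMP8B fell from a mean of 17.0 CPM in DMSO to 7.38 CPM at 10 µM (adjusted p = 0.00691), and TGFB3, a TGF-β ligand gene named after its values were seen, was called lower at -0.82 (adjusted p = 0.0498) and was not called without the first 10 µM replicate (adjusted p = 0.0902).

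Of 15 receptor and co-receptor genes tested, 1 rose (6.67%) and 2 fell (13.3%) at 10 µM, beside the same shares of all genes. TGFBR2, the type II receptor that binds TGF-β, was at 125, 134 and 137 CPM in DMSO, at 116, 99.8 and 107 CPM at 5 µM and at 42.6, 74.1 and 67.3 CPM at 10 µM. All treated libraries lay below DMSO, and the log2 fold change at 10 µM was -1.11 (SE 0.17, adjusted p = 0.000936). TGFBR1, its type I partner, had a log2 fold change of -0.06 (SE 0.17, adjusted p = 0.832), and of 0.15 (SE 0.07, adjusted p = 0.113) without the first 10 µM replicate, so its sign turned and it passed in neither setting. ENG, a co-receptor of the BMP9 branch, fell by 0.71 (adjusted p = 6.19e-05). RGMA, a BMP co-receptor, was called higher at 1.23 (adjusted p = 0.0213) from a DMSO range of 0.591 to 0.926 CPM.

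Of the 6 signalling SMAD genes, 0 were called higher and SMAD3 alone (16.7%) lower at 10 µM, beside 8.57% and 10.5% of all genes. At an unadjusted p under 0.05 the counts were 0 and 3, and DESeq2 called 0 and 2. SMAD3, which carries TGF-β and activin signals, fell from a mean of 165 CPM in DMSO to 95.9 CPM, with a log2 fold change of -0.79 (SE 0.08, adjusted p = 7.31e-05). SMAD4, the partner shared by both branches, had a log2 fold change of -0.14 (adjusted p = 0.301), and of -0.05 (adjusted p = 0.555) without the first 10 µM replicate. Of the 14 further negative regulators inside the cell, 0 were called at 10 µM by edgeR or DESeq2, beside the same shares of all genes. At an unadjusted p under 0.05, 2 were higher and 2 lower. PMEPA1, a TGF-β-induced inhibitor of SMAD signalling, was the 1 called gene of that list at 5 µM, where its log2 fold change was 0.63 (adjusted p = 0.000300), and was at 0.13 (adjusted p = 0.131) at 10 µM. It was named after its values were seen.

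Of 9 extracellular antagonist genes tested, 0 rose and 4 fell (44.4%) at 10 µM in edgeR, beside 8.57% and 10.5% of all genes. DESeq2 called the same counts, and 1 was higher and 6 lower at an unadjusted p under 0.05. CHRDL1, a chordin-like BMP antagonist, had a log2 fold change of -1.61 (adjusted p = 2.94e-05), FSTL1 of -1.11 (adjusted p = 0.000232) and NOG, which encodes the BMP antagonist noggin, of -1.03 (adjusted p = 0.00160). Of 10 genes listed under latency and activation of TGF-β, 0 rose and 2 fell (20%) in edgeR, beside the same shares of all genes. The counts were 0 and 4 by DESeq2, and 0 and 6 at an unadjusted p under 0.05. LTBP3, which tethers latent TGF-β to the matrix, was the more abundant, at 635, 630 and 655 CPM in DMSO and at 351, 320 and 328 CPM at 10 µM, which gave a log2 fold change of -0.94 (adjusted p = 8.13e-06). LTBP2, a gene of the same family whose part in latency is not assumed here, fell by 1.28 (adjusted p = 0.00318).

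Target genes of TGF-β moved both ways, with 5 of 18 higher and 5 lower at 10 µM. Each was 27.8%, beside 8.57% and 10.5% of all genes, and the median log2 fold change was 0.04. FN1, which encodes fibronectin, fell from 770, 788 and 789 CPM in DMSO to 106, 156 and 154 CPM at 10 µM, a log2 fold change of -2.49 (SE 0.13, adjusted p = 1.19e-06). TGFBI, a TGF-β-induced matrix protein gene, fell to 134, 125 and 116 CPM from 550, 541 and 548 CPM, a log2 fold change of -2.13 (SE 0.07, adjusted p = 8.31e-08). CCN2, the connective tissue growth factor gene, rose to 129, 128 and 134 CPM from 35.7, 34.9 and 35.4 CPM, a log2 fold change of 1.88 (SE 0.07, adjusted p = 1.41e-07). For these 3 genes the 10 µM and DMSO groups were separate, and in CCN2 the first 10 µM replicate lay beside the others.

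The 9 further BMP target genes tested also split, with 3 higher (33.3%) and 4 lower (44.4%) at 10 µM. The shares of all genes were 8.57% and 10.5%. ATOH8, a helix-loop-helix gene that responds to BMP9 in endothelium, fell from 11.7, 11.2 and 11.9 CPM in DMSO to 2.39, 3.04 and 2.48 CPM at 5 µM and to 2.40, 1.13 and 0.978 CPM at 10 µM. Its log2 fold changes were -2.14 (SE 0.29, adjusted p = 0.00155) and -2.95 (SE 0.30, adjusted p = 7.10e-05), opposite in sign to those of ID2 and ID3. RUNX2 fell by 1.84 (adjusted p = 0.000145) and HEY1 by 0.98 (adjusted p = 0.0146) at 10 µM. The genes called higher there were MSX2 at 0.70 (adjusted p = 0.0142), GATA2 at 0.645 (adjusted p = 0.000709) and DLX5, which was under 1 CPM in every library. They share the sign of ID2 and ID3 and were named after their values were seen.

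The E proteins are the direct partners of ID proteins. All 3 of their genes had a negative log2 fold change at 10 µM. In edgeR and in DESeq2, 0 were called higher and 2 (66.7%) lower, with 0 and 3 at an unadjusted p under 0.05. The edgeR shares of all genes were 8.57% and 10.5%. TCF12 had a log2 fold change of -0.74 (adjusted p = 0.00677) and TCF4 at -0.66 (adjusted p = 0.0437). Both were lowest in the first 10 µM replicate, at 67.5 and 5.97 CPM, and both calls ended without it, at -0.53 and -0.40, with the p still passing (3.47e-08 and 0.00535). TCF3, named after its values were seen, was then called lower at -0.62 (adjusted p = 1.38e-06), so 1 of the 3 was called in that setting.

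**Figure D4:**
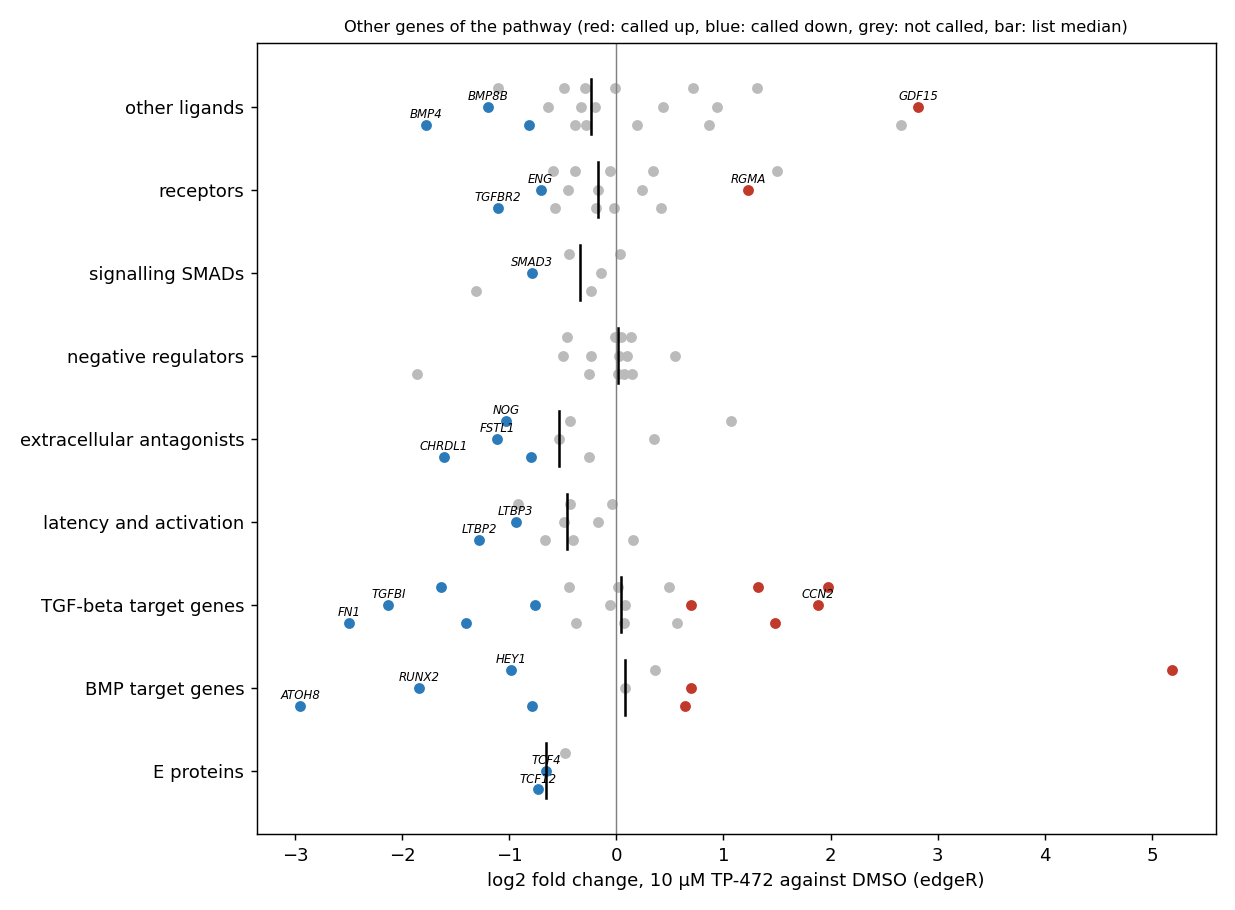
Log2 fold change at 10 µM against DMSO (horizontal axis) of the 104 other pathway genes tested, 1 point per gene in 9 lists (vertical axis, spread only for legibility), red for called higher, blue for called lower, grey for not called, and a black bar at each list's median. Called genes in the lists of extracellular antagonists, latency and activation, and E proteins are all blue, whereas TGF-β target genes and BMP target genes hold both colours.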

How the data were processed

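mRNA of A375 cells was sequenced in 9 libraries, 3 each for DMSO, 5 µM and 10 µM TP-472 (24 h). The authors deposited expected counts per gene symbol, not scaled to library size. The submitters' processing notes name RSEM 1.2.15, Bowtie2 2.1.0 and the build hg38. For the annotation and the strand setting of the counting, nothing is given in the sources used here. Labels and the paper describe oligo-dT selection and strand-specific libraries, whereas the series design names ribosomal RNA depletion. Ribosomal RNA genes held 8.20% to 19.9% of all counts.

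Expected counts were rounded and tested with edgeR 4.0.16 in R 4.3.3 (TMM factors of 0.957 to 1.029, filterByExpr, quasi-likelihood F test), with 3 groups in 1 fit and Benjamini-Hochberg adjustment over 16417 genes. Standard errors are the absolute log2 fold change over the root of F. A call needed an adjusted p under 0.05 and a fold change of at least 1.5. DESeq2 1.42.0, other scaling factors and filters, a replicate block, fits of 2 groups, omission of each library, omission of ribosomal RNA genes and no fold limit served as alternatives, and removal of length and GC trends was added after the data were seen. Exon lengths and positions are from GENCODE 29 (GRCh38), and promoters from RefSeq.

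The 9 genes, the pathway lists and the motifs were chosen with earlier results of these data known, and the lists were written from general knowledge. Named genes are the 9 genes, up to 3 genes per list with the largest change called at 10 µM and a mean of at least 1 CPM, TGFBR1, TGFBR2, SMAD3, SMAD4, overlapping antisense genes, and the 2 genes most correlated with each called gene. One gene that the rule names is not reported here. Genes outside this rule were named after their values were seen. The counting noise of the low genes TGFB2 and ID4 limits what their p-values can show.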

Additional observations from a re-analysis of the deposited data

Results flagged for a closer look

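Between the doses, ID2 and SMAD7 were those of the 9 genes whose difference passed an adjusted p of 0.05, and SMAD7, ID4 and GDF11 had their 5 µM and 10 µM libraries on opposite sides of DMSO. The 13 other pathway genes called between the doses are counted with the pathway lists. ID2 was higher at 10 µM than at 5 µM by a log2 fold change of 1.01 (edgeR adjusted p = 0.0271), with all 3 libraries at 10 µM above all 3 at 5 µM. SMAD7 was higher by 0.51 (adjusted p = 0.0110), with its 5 µM libraries below and its 10 µM libraries above DMSO. ID4 had the opposite arrangement, above DMSO in every 5 µM library and below it in every 10 µM library, and its log2 fold change between the doses of -1.06 did not pass (adjusted p = 0.0763). GDF11, a ligand of the activin branch, showed the same arrangement as ID4, at 75.5 to 77.9 CPM at 5 µM, 55.0 to 69.1 CPM at 10 µM and 72.0 to 72.9 CPM in DMSO, and its log2 fold change between the doses of -0.28 did not pass either (adjusted p = 0.0807). It was -0.19 (adjusted p = 0.00838), under the fold limit, without the first 10 µM replicate. GDF11 was named after its values were seen.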

How the results depend on the processing

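Over 19 alternatives, ID2 was called at both doses against DMSO in each, with log2 fold changes of 1.89 to 2.19 at 5 µM and 2.80 to 3.23 at 10 µM, and at 10 µM ID3 (0.74 to 1.02) and SMAD6 (-1.27 to -0.73) were called in each. INHBA lost its call without the first 10 µM replicate only. ID1 gained a call at 10 µM without the third 10 µM replicate and with no fold limit. The count of the 9 genes called there thus ran from 3 to 5. Of all genes, 3137 were called there as reported, 3209 without the first 10 µM replicate, 3382 without the third and 5634 with no fold limit. The count of the 9 genes called at 5 µM rose from 1 to 2 in some settings, since ID3 then passed. These were upper-quartile factors, a filter of at least 1 CPM in 3 libraries and no fold limit. The count of pathway genes there rose from 14 to 23 with no fold limit. Of all genes, 799 were called there as reported, 793 with upper-quartile factors, 799 with that filter and 1676 with no fold limit. Between the doses the count for the 9 genes was 1 as reported, 2 with DESeq2 or no fold limit, 0 in a fit of only the groups compared, 3 with length and GC trends removed and 0 to 3 with 1 library left out. For pathway genes it was 13, against 6 in a fit of only the groups compared. It was 7 to 13 with 1 library left out, lowest without the second 5 µM replicate. No counts of all genes are set beside these counts between the doses. Directions reversed for 3 values. TGFB1 at 5 µM ran from -0.0091 to 0.0313 with 1 library left out (-0.0040, -0.0091 and -0.0050 where negative), TGFB2 between the doses from -0.0204 to 0.33, and ID1 between the doses from -0.19 to 0.19, and ID1 was at -0.0873 with length and GC trends removed. Apart from the cases where fewer samples or no fold limit set the value, the cause was not tested.

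With the replicate block, the counts for the 9 genes stayed at 1, 4 and 1 and those of pathway genes were 13, 36 and 10. Of all genes, 687 were then called at 5 µM and 3005 at 10 µM, against 799 and 3137 without the block. Same-numbered libraries of different groups had deviations that correlated at -0.108 to 0.109, so the numbers were not taken to pair the libraries.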
